A study of Gallus gallus with 48 samples.

Results

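The effect of lens sign after 3 days of lens wear was measured in chick retina and retinal pigment epithelium (RPE), collected as 1 sample per eye. It rested on 24 of the 48 arrays of the series and on 12 of its 24 birds, chosen as every sample labelled with 3 days of wear and not by any measured value. The samples formed 4 groups of 6: lens eyes of birds with a lens of -15 diopters (D), the control eyes of the same birds, which wore no lens, lens eyes of birds with a lens of +15 D, and the control eyes of those birds. All birds were White Leghorn chicks kept on a cycle with 12 hours of light, and the lens was fixed over 1 eye at 1 week of age. Each control eye belonged to a bird that wore a lens on its other eye, so effects that reach both eyes are not seen in the difference between them. The quantity compared is the lens eye minus the control eye of a bird on the log2 scale, called the response here. The sign difference is the mean response of the -15 D birds minus that of the +15 D birds. Birds at 6 hours of wear, 6 for each lens, were other animals and were used only to estimate the spread and to set the same difference at 6 hours beside that at 3 days.

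A negative lens moves the plane of focus behind the retina, and a young chick eye then grows longer. A positive lens moves the focus in front of the retina, and elongation slows while the choroid thickens. The growth signal starts in the retina and is passed through the RPE to choroid and sclera. Known candidates are the transcription factor EGR1 (ZENK in chicks), whose protein level in glucagon amacrine cells follows defocus sign, and the bone morphogenetic proteins (BMPs) of the RPE, secreted growth factors.

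The sampled tissue carried the marker signals of retina and RPE. Over the 24 arrays the cone phosphodiesterase PDE6C had a median of 12.14 log2, the glial enzyme GLUL 13.73, the retinal transcription factor PAX6 12.77 and the RPE isomerase RPE65 12.12. The pigment enzyme TYR varied more, with a median of 8.80 and a highest value of 10.76. Genes of neighbouring tissues varied between the 2 eyes of single birds. The mean of 17 lens and anterior segment genes was lower in the lens eye by 3.91 in -15 D bird 4 and by 3.94 in +15 D bird 3. The highest list means of control eyes were 10.57 in -15 D and 10.33 in +15 D birds, whereas all lens eyes lay between 6.34 and 6.66. The 3′/5′ signal ratio of GAPDH is a measure of RNA integrity that rises where RNA is less intact. It was higher in the lens eye in 6 of 6 -15 D birds (mean 0.10, SD 0.07) and in 2 of 6 +15 D birds (mean -0.08, SD 0.17). That difference of 0.18 gave p = 0.0108 in a two-sided exact permutation test of the birds, 0.0216 adjusted over the 2 ratios examined. The same ratio of actin averaged 0.32 (SD 0.14, above 0 in 6 of 6) in -15 D birds and -0.02 (SD 0.37, above 0 in 3 of 6) in +15 D birds, with p = 0.0584 by the same exact test. Among +15 D birds both ratios were lowest for bird 5 (GAPDH -0.39, actin -0.57), followed by bird 1 (GAPDH -0.18, actin -0.37). Birds 2, 3, 4 and 6 ran from -0.01 to 0.08 for GAPDH and from -0.01 to 0.32 for actin. The negative +15 D means thus came mostly from birds 5 and 1 and were not shared by the whole set. By the exact test over all 12 birds the GAPDH ratio differed with lens sign, whereas the actin difference did not pass. With one or the other as a covariate the number of probe sets with an unadjusted p under 0.05 for the sign difference was 1560 (actin) and 1332 (GAPDH), in place of 3556 without one. Over the 13009 genes with a symbol, each by its brightest probe set, the share was 3.57% (actin) and 2.72% (GAPDH), in place of 8.32%, and it was 6.26% without -15 D birds 5 and 6. Their part in single results was not tested beyond the values given beside them.

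No gene passed the test for a difference between the lens signs. With limma on all 48 arrays and the bird as a block, 0 of 38382 probe sets (0%) had an adjusted p under 0.05 for the sign difference, and the lowest adjusted p was 0.382. At an unadjusted p under 0.05 there were 3556 probe sets (9.26%), 1757 with a higher (4.58%) and 1799 with a lower (4.69%) response in -15 D birds. The median 95% interval of a sign difference, unadjusted, reached 0.25 to either side. With 6 birds a lens, differences of that size or smaller were mostly not detectable even before adjustment. Larger ones also went uncalled after it, such as -0.91 for a PLA2G10L probe set (limma adjusted p = 0.402). The 6 -15 D responses all lay below the 6 +15 D responses in 190 probe sets and all above in 160, together 0.912% of those tested. The 2 responses taken singly were also short lists. Against their own control eyes, 27 probe sets changed behind a -15 D lens (0.0703% of those tested, 7 or 0.0182% higher and 20 or 0.0521% lower) and 2 behind a +15 D lens (0.00521%, both lower). Across all probe sets the mean responses to the 2 lenses had a Pearson correlation of 0.0012 and a Spearman correlation of -0.038, given as a description because probe sets of the same birds are not independent.

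**Figure D1:**
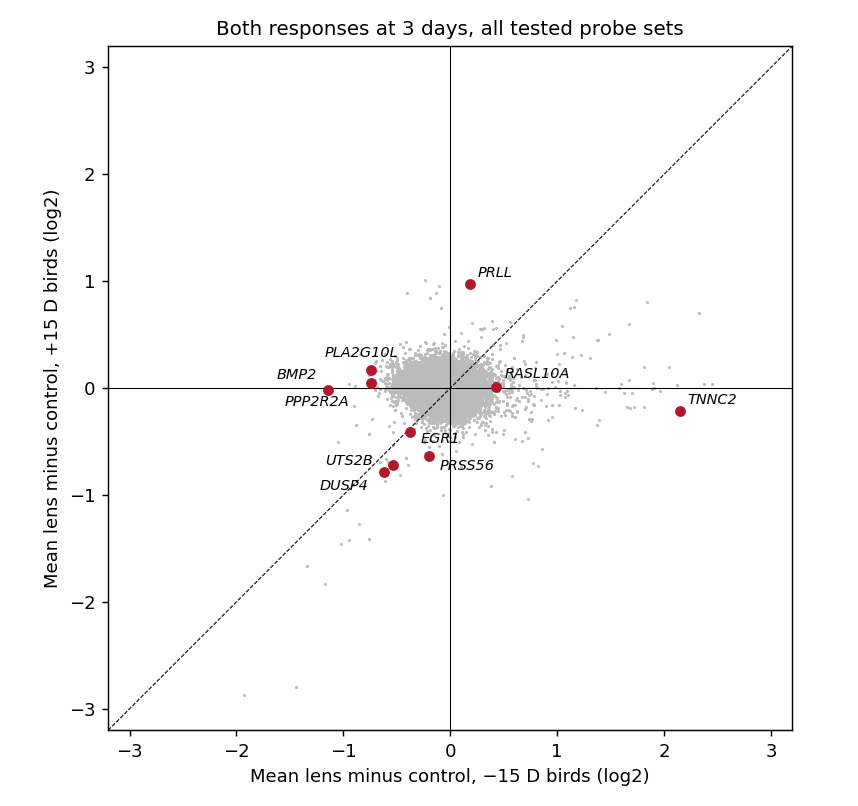
Mean lens minus control difference (log2) of the 6 -15 D birds (horizontal axis) against that of the 6 +15 D birds (vertical axis) for all 38382 tested probe sets, with 10 named genes in red and the line of equal responses dashed. DUSP4, UTS2B and EGR1 lie near the dashed line, BMP2 and RASL10A lie on the horizontal axis, and the spread to the right along that axis includes striated muscle genes such as TNNC2.

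Among the genes studied for eye growth, BMP2 had the widest sign difference of those with a p under 0.05. BMP2, a secreted ligand of the BMP family, had 7.78 to 8.32 log2 (median 7.89) in the lens eyes of -15 D birds, against 8.54 to 9.65 (median 9.13) in their control eyes. In +15 D birds it had 8.23 to 9.95 (median 9.18) in lens eyes and 8.64 to 9.73 (median 9.23) in control eyes. The lens eyes of -15 D birds were all below all control eyes, whereas the lens and control eyes of +15 D birds overlapped throughout. The response was between -1.87 and -0.48 in -15 D birds (mean -1.15 ± 0.55, SD, n = 6, lower in 6 of 6) and between -0.90 and 0.75 in +15 D birds (mean -0.02 ± 0.60, lower in 3 of 6), so that the 2 sets overlapped. The sign difference was -1.13 (95% interval -1.87 to -0.38), with an unadjusted p of 0.00458 and a limma adjusted p of 0.411. It lay between -1.31 and -0.98 under the 25 alternative settings, and was -1.07 without the 2 -15 D birds high in muscle genes, -1.12 with the actin ratio and -1.09 with the GAPDH ratio as a covariate. The -15 D response alone had an adjusted p of 0.0655.

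The BMP2 difference was seen between the lens eyes. Lens eyes of -15 D birds differed from lens eyes of +15 D birds by -1.17 (unadjusted p 0.000215, limma adjusted p = 0.188), and control eyes of the 2 sets differed by -0.05 (unadjusted p 0.874). A dimmer BMP2 probe set had a sign difference of -0.98 (unadjusted p 0.0473, limma). A further one, with a mean of 2.91, below the array background of 4.61, gave 0.28 in the other direction (unadjusted p 0.0478, limma). After 6 hours, in the other 12 birds, the BMP2 sign difference was -1.38 (unadjusted p 0.000863, adjusted p = 0.985). The difference between 3 days and 6 hours was 0.25 (limma adjusted p = 0.999). In such whole samples fewer cells of a type and less RNA per cell cannot be told apart. The RPE list as a whole averaged -0.06 (SD 0.29) in -15 D birds and -0.02 (SD 0.57) in +15 D birds, a difference of -0.04.

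BMP7 and BMP4 are ligands of the same family. BMP7 had responses from -1.03 to 0.01 in -15 D birds (mean -0.44 ± 0.47) and from -0.95 to 0.99 in +15 D birds (mean -0.03 ± 0.71), with a sign difference of -0.40 (unadjusted p 0.210). BMP4 averaged -0.23 ± 0.34 in -15 D and 0.11 ± 0.61 in +15 D birds, a difference of -0.34 (p 0.253, limma). Both sets of birds overlapped for both genes. Of 19 BMP and TGF-beta ligands measured, BMP2 and INHA, the inhibin alpha chain (0.28, p 0.0153), had an unadjusted p under 0.05, which is 10.5% against 8.32% of the 13009 named genes. None of 15 genes for receptors and the SMAD proteins that carry their signal did, and none of 17 genes for secreted antagonists and for inhibitors in the membrane or the cell. Of 13 BMP target genes only ID4, an inhibitor of helix-loop-helix transcription factors, did. Its response averaged 0.12 ± 0.05 (above 0 in 6 of 6) in -15 D birds and -0.04 ± 0.10 (above 0 in 1 of 6) in +15 D birds, a difference of 0.16.

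**Figure D2:**
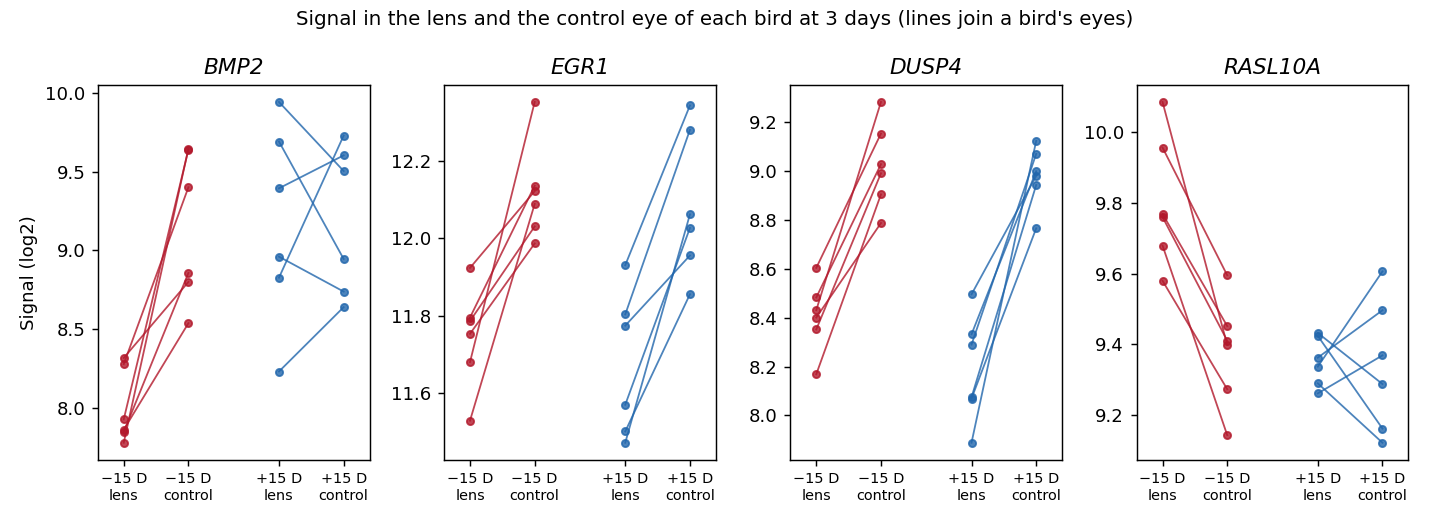
Log2 signal of the brightest probe set of BMP2, EGR1, DUSP4 and RASL10A in the lens eye and the control eye of each bird at 3 days, with -15 D birds in red, +15 D birds in blue and a line joining the eyes of a bird. BMP2 is lower in every -15 D lens eye with no common direction behind +15 D, EGR1 and DUSP4 are lower in all 12 lens eyes, and RASL10A is higher in all 6 -15 D lens eyes.

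EGR1 was lower in the lens eye of every bird, and 1 of its 2 probe sets passed the test, behind -15 D. Its brightest probe set had 11.53 to 11.92 log2 (median 11.77) in -15 D lens eyes against 11.99 to 12.35 (median 12.10) in their control eyes, and 11.47 to 11.93 (median 11.67) in +15 D lens eyes against 11.86 to 12.34 (median 12.04) in theirs. The lens eye was lower in 12 of 12 birds, with mean responses of -0.37 ± 0.20 behind -15 D (adjusted p = 0.0923, limma) and -0.41 ± 0.14 behind +15 D (0.611). The sign difference was 0.04, with an interval from -0.26 to 0.33. A dimmer EGR1 probe set averaged -0.66 ± 0.32 in -15 D birds, where it passed the test (adjusted p = 0.0482, limma), and -0.69 ± 0.21 in +15 D birds, where it did not (0.110), with a sign difference of 0.03 (-0.34 to 0.40). Of 18 immediate early genes, which activity switches on within minutes, 0 had an unadjusted p under 0.05 for sign. Of all named genes 8.32% did. The mean of the 18 was lower in the lens eye in all 12 birds, with -0.14 (SD 0.03) behind -15 D and -0.15 (SD 0.05) behind +15 D. ARC, a synaptic gene of this list just below background, averaged -0.47 ± 0.54 in -15 D and -0.82 ± 0.16 in +15 D birds. MAFF averaged -0.10 ± 0.15 in -15 D and -0.24 ± 0.15 in +15 D birds, and JUN went the other way, with 0.19 ± 0.11 in -15 D and 0.06 ± 0.13 in +15 D birds.

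DUSP4 was the gene that passed in both responses. DUSP4, a phosphatase that inactivates MAP kinases and is induced by them, fell behind -15 D by 0.62 ± 0.16 (adjusted p = 0.0025, limma) and behind +15 D by 0.79 ± 0.25 (0.000102), in 6 of 6 birds each. Its lens eyes held 8.17 to 8.60 log2 in -15 D birds against 8.79 to 9.28 in their control eyes, and 7.89 to 8.50 in +15 D birds against 8.77 to 9.12 in theirs. Lens and control eyes did not overlap in either set. The sign difference was 0.17 (-0.08 to 0.42, p 0.170). A second DUSP4 probe set averaged -0.40 ± 0.16 behind -15 D, short of the threshold (0.0673), and fell by 0.72 ± 0.24 behind +15 D (0.00108), with a sign difference of 0.32 (unadjusted p 0.0223, limma adjusted p = 0.470). Of 21 measured MAP kinase feedback genes 1 had an unadjusted p under 0.05 for sign (4.76%, against 8.32% of all named genes). This was SPRED2, an inhibitor of the Ras to Raf step. It averaged -0.40 ± 0.15 (lower in 6 of 6) in -15 D and -0.04 ± 0.32 (lower in 3 of 6) in +15 D birds, a difference of -0.36 (p 0.0095).

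Other genes tied to eye growth did not pass the test in either response. UTS2B, a peptide of the urotensin family, was lower in the lens eye in 12 of 12 birds, with means of -0.53 ± 0.22 behind -15 D and -0.72 ± 0.51 behind +15 D and a sign difference of 0.19 (-0.23 to 0.61). PRSS56, a serine protease whose variants are linked to small eyes and to refraction in humans, was lower in 6 of 6 +15 D birds (mean -0.63 ± 0.32) and in 3 of 6 -15 D birds (mean -0.20 ± 0.36). Its sign difference was 0.43 (0.08 to 0.79, unadjusted p 0.0191, adjusted 0.458). A dimmer PRSS56 probe set, at 5.57, had a +15 D response of -0.07 and a sign difference of 0.05. VIP, a peptide of amacrine cells, averaged -0.08 ± 0.07 in -15 D birds and -0.36 ± 0.31 in +15 D birds, lower in 5 of 6 birds of each, with a difference of 0.28 (-0.01 to 0.56). At 6 hours, in other birds, that difference was -0.27 (p 0.0593), of opposite sign. GCG, the glucagon precursor, averaged -0.40 ± 0.29 in -15 D and -0.13 ± 0.39 in +15 D birds, a difference of -0.27 (-0.60 to 0.07). The adenosine receptor ADORA1 averaged 0.18 ± 0.09 (above 0 in 6 of 6) in -15 D and -0.04 ± 0.16 in +15 D birds, a difference of 0.23 (unadjusted p 0.0259). Melanopsin, OPN4, averaged -0.25 ± 0.12 in -15 D and -0.20 ± 0.32 in +15 D birds.

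For the remaining members the sign difference was smaller than its interval. It was 0.03 (-0.12 to 0.18) for PENK, the enkephalin precursor, and -0.01 (-0.35 to 0.33) for TGFB2, a growth factor. It was -0.18 for NTS, 0.22 for NPY and -0.02 for TAC1, which encode peptides of retinal neurons. It was 0.11 for FGF2, -0.10 for IGF1 and 0.01 for INS, all growth factors or hormones. TH, which makes dopamine, had 0.13 and NOS1, a nitric oxide synthase just below background, had -0.04. The adenosine receptor ADORA2A had -0.09. ALDH1A2, a retinoic acid enzyme abundant in chick choroid, and the apolipoprotein APOA1 had the widest spread, with SDs of 2.32 and 2.45 over the +15 D birds, and differences of 0.11 (-2.01 to 2.22) and 0.79 (-1.37 to 2.95). In all, 3 of 23 measured eye growth genes had an unadjusted p under 0.05 (13.0%), against 8.32% of all named genes, and 0 passed after adjustment. The list's median sign difference was 0.01, against 0.03 over all named genes.

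**Figure D3:**
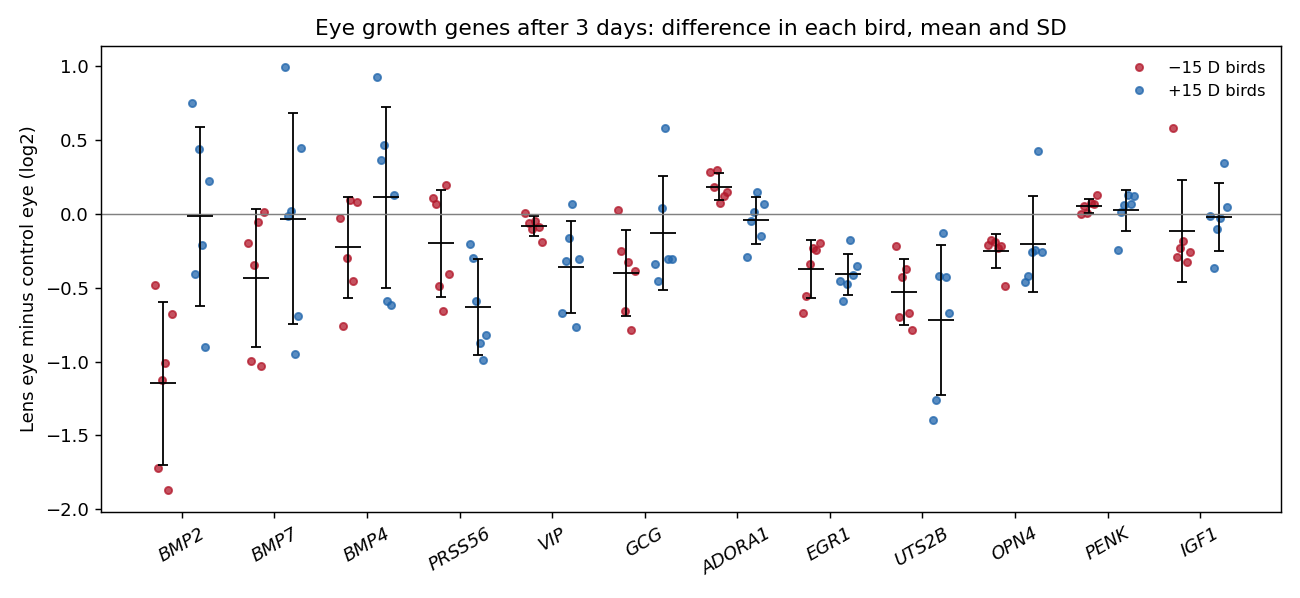
Lens minus control difference (log2) of 12 eye growth genes in each bird, -15 D birds in red and +15 D birds in blue, with the mean and SD of the 6 birds in black. BMP2 is below 0 in all -15 D birds and spread around 0 in +15 D birds, EGR1 and UTS2B are below 0 in all 12, and PRSS56 is below 0 in all +15 D birds.

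Behind the -15 D lens RASL10A rose, and 2 probe sets of it passed. RASL10A encodes a small Ras-like GTPase. Its brighter probe set had 9.58 to 10.09 log2 in -15 D lens eyes against 9.14 to 9.60 in their control eyes, and 9.26 to 9.43 in +15 D lens eyes against 9.12 to 9.61 in theirs. It rose by 0.43 ± 0.15 in -15 D birds (6 of 6, adjusted p = 0.0445, limma) and averaged 0.01 ± 0.21 in +15 D birds, and the 6 and 6 responses did not overlap. The sign difference was 0.42 (0.19 to 0.64, unadjusted p 0.000949, adjusted 0.402). The second probe set, which may share probes with the first, rose by 0.38 ± 0.08 and averaged -0.01 ± 0.13, a difference of 0.39 (0.18 to 0.59). ENTPD7, which hydrolyses nucleotides inside cells, rose by 0.34 ± 0.08 in -15 D birds and averaged -0.01 ± 0.12 in +15 D birds. GMPPA, a regulator of GDP-mannose synthesis, rose by 0.32 ± 0.13 in -15 D birds and averaged 0.00 ± 0.15 in +15 D birds. For both the 2 sets of responses did not overlap, and the sign differences were 0.36 and 0.32 (both adjusted p = 0.402, limma). A dimmer GMPPA probe set had a -15 D response of 0.12 and a sign difference of -0.07.

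Other genes fell behind -15 D and did not pass the test behind +15 D. SHC4, an adaptor of receptor tyrosine kinases, fell by 0.52 ± 0.15 in -15 D birds and averaged -0.32 ± 0.31 in +15 D birds, lower in 5 of 6, so its sign difference was small at -0.21 (p 0.124). SESTD1 fell by 0.30 ± 0.12 in -15 D birds and averaged -0.10 ± 0.12 in +15 D birds. A dimmer SESTD1 probe set, at 7.65, had a -15 D response of 0.0007 and a sign difference of 0.03. EIF4E, the cap-binding translation factor, fell by 0.52 ± 0.25 in -15 D birds and averaged 0.02 ± 0.20 in +15 D birds, a difference of -0.54 (-0.82 to -0.26). Its brightest probe set gave -0.28 (unadjusted p 0.0139). SYN2, a synaptic vesicle protein, fell by 0.61 ± 0.17 in -15 D birds and averaged 0.05 ± 0.43 in +15 D birds, and its 3 brighter probe sets had sign differences of -0.15, -0.22 and -0.31. The peptide transporter SLC15A4 fell by 0.46 ± 0.20 in -15 D birds and averaged -0.03 ± 0.32 in +15 D birds. GTPBP8 fell by 0.31 ± 0.09 in -15 D birds and averaged -0.02 ± 0.14 in +15 D birds, without overlap. A dimmer GTPBP8 probe set had a -15 D response of 0.01 and a sign difference of 0.17. FBXO33, a substrate adaptor of ubiquitin ligases, and the palmitoyl transferase ZDHHC12 fell by 0.50 ± 0.23 and 0.52 ± 0.16 in -15 D birds and averaged -0.01 ± 0.13 and -0.02 ± 0.32 in +15 D birds. Their signals were close to background, below it for ZDHHC12. The brightest FBXO33 probe set, at 11.59, had a -15 D response of 0.02 and a sign difference of 0.02.

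Of the 27 probe sets that changed behind -15 D, 15 (55.6%) had the same sign behind +15 D, against 48.9% of all probe sets, and their median size was 0.52 in -15 D and 0.05 in +15 D birds. For 22 of them the unadjusted p for the sign difference was under 0.05, against 9.26% of all probe sets. For 14 the birds did not overlap, against 0.912% of all. They were called for being far from 0 in the -15 D birds, which enter the sign difference too, so these counts are a description. Most of the calls, with adjusted p-values (limma) close to 0.05, were lost in most fits that left out 1 bird of either lens. The cause was not tested. RNF149, DUSP4 and PPP2R2A were called in each of 12 fits that left out 1 bird, whereas 13 of the 27, EGR1, ENTPD7, GMPPA, SYN2 and the brighter RASL10A probe set among them, were called in at most 1. Without -15 D birds 5 and 6, or with the GAPDH ratio as a covariate, 1 and 3 probe sets were called in place of 27.

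The lowest p for lens sign belonged to PPP2R2A, which directs protein phosphatase 2A to its substrates. That probe set had 4.65 to 5.63 log2 (median 5.33) in -15 D lens eyes against 5.55 to 6.29 (median 6.01) in their control eyes, and 5.62 to 6.35 (median 6.24) in +15 D lens eyes against 5.52 to 6.47 (median 6.08) in theirs. The responses were -1.20 to -0.44 in -15 D birds and -0.24 to 0.50 in +15 D birds, without overlap. The sign difference was -0.79 (-1.09 to -0.50, unadjusted p 9.95e-06, limma adjusted p = 0.382). The brightest PPP2R2A probe set, at a mean of 10.04, averaged 0.14 ± 0.08 in -15 D and 0.04 ± 0.05 in +15 D birds, a difference of 0.10 in the other direction. Of 19 genes of protein phosphatase 2A and related phosphatases, each by its brightest probe set, 0 had an unadjusted p under 0.05. Of all named genes 8.32% did.

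Most of the genes next in order also had a brighter probe set with a smaller difference. Of the 25 named genes with the lowest p, all with adjusted p-values of 0.38 to 0.40, 17 were lower and 8 higher in -15 D than in +15 D birds, and 19 had a brighter probe set. That brighter probe set had the same sign in 11 of 19 and an unadjusted p under 0.05 in 1. Its median size was 0.05, against 0.51 for the lowest-p probe sets of the same 19 genes. RNF149, a ubiquitin ligase, fell by 0.52 ± 0.12 in -15 D birds and averaged -0.12 ± 0.09 in +15 D birds, but its brightest probe set, at 11.59, had a sign difference of -0.05. CLK4, a kinase of splicing factors, fell by 0.42 ± 0.15 in -15 D birds and averaged 0.02 ± 0.21 in +15 D birds, and its brightest, at 12.39, gave -0.09. MOCS2, of molybdenum cofactor synthesis, fell by 0.35 ± 0.12 in -15 D birds and averaged 0.06 ± 0.14 in +15 D birds. PLA2G10L, a phospholipase gene, fell by 0.74 ± 0.21 in -15 D birds and averaged 0.17 ± 0.27 in +15 D birds, a sign difference of -0.91 (-1.28 to -0.54). KLHL5, an adaptor of ubiquitin ligases, fell by 0.60 ± 0.21 in -15 D birds and averaged 0.21 ± 0.30 in +15 D birds. UTP6, of ribosome assembly, fell by 0.45 ± 0.13 in -15 D birds and averaged 0.04 ± 0.30 in +15 D birds.

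Genes of this group known by their brightest or sole probe set were fewer. ZBTB7C, a transcriptional repressor, averaged 0.35 ± 0.14 (above 0 in 6 of 6) in -15 D and -0.15 ± 0.20 (above 0 in 1 of 6) in +15 D birds, without overlap and with a sign difference of 0.51 (0.28 to 0.73). FZD9, a receptor of WNT ligands, averaged 0.27 ± 0.09 (6 of 6) in -15 D and -0.08 ± 0.10 (1 of 6) in +15 D birds, without overlap, a difference of 0.35 (0.18 to 0.52). CFAP52, a protein of motile cilia, averaged 0.33 ± 0.34 in -15 D and -0.35 ± 0.19 in +15 D birds, a difference of 0.68 (0.37 to 0.99). TXLNG averaged 0.23 ± 0.12 in -15 D and -0.14 ± 0.18 in +15 D birds. MHCY10 averaged 0.26 ± 0.12 in -15 D and -0.10 ± 0.15 in +15 D birds. It belongs to a family of similar genes that a single probe set may not separate. Dimmer probe sets gave sign differences of 0.15 for MHCY10 and, below background, 0.09 for ZBTB7C. The direction of the -15 D mean was opposite to that of the +15 D mean in 24 of the 25, and the -15 D mean was the larger in 22. Over all probe sets 48.9% had the same sign in both. The 25 were picked by the sign difference, which favours means of opposite sign, so these counts are a description. At 6 hours 14 of the 25 had the same sign of difference, with a median size of 0.10.

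The remaining genes of the 25 are given by their sign difference. The sodium channel subunit SCNN1A had a sign difference of -0.84, SLC18B1, a polyamine transporter, -0.59, PPP2R3B, another phosphatase 2A subunit, -0.55, FARP1 -0.47 and ENTPD4, a nucleotidase of the Golgi, -0.61. It was -0.45 for KLHL20, an adaptor of ubiquitin ligases, -0.41 for TMEM131, -0.39 for the mitochondrial gene TFB1M and -0.67 for LOC425347. Their brightest probe sets gave 0.05 for KLHL20, 0.02 for TMEM131, 0.04 for TFB1M, 0.04 for LOC425347 and 0.08 for SLC18B1, of opposite sign. The brightest gave -0.03 for PPP2R3B, -0.06 for FARP1, -0.12 for SCNN1A and -0.34 for ENTPD4. COL2A1, a cartilage collagen also made in the eye, had 0.44 with a probe set at background level and 0.05 with its brightest, at 11.24. NT5E, an enzyme that makes adenosine, had 0.45 with a probe set below background and -0.23 with a dimmer probe set. VTG2, which encodes the yolk precursor vitellogenin and had a mean of 4.24, below background, differed by -0.51 at 3 days and by 0.29 at 6 hours. Its brightest probe set, at 8.46, had a sign difference of -0.08 (p 0.605). VTG2 was the one gene called for lens sign under any alternative, at -0.58 with array weights (adjusted p = 0.0432, limma) and at -0.60 without +15 D bird 5 (0.0326), over a range of adjusted p from 0.0326 to 1 in the 22 alternatives that tested it.

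**Figure D4:**
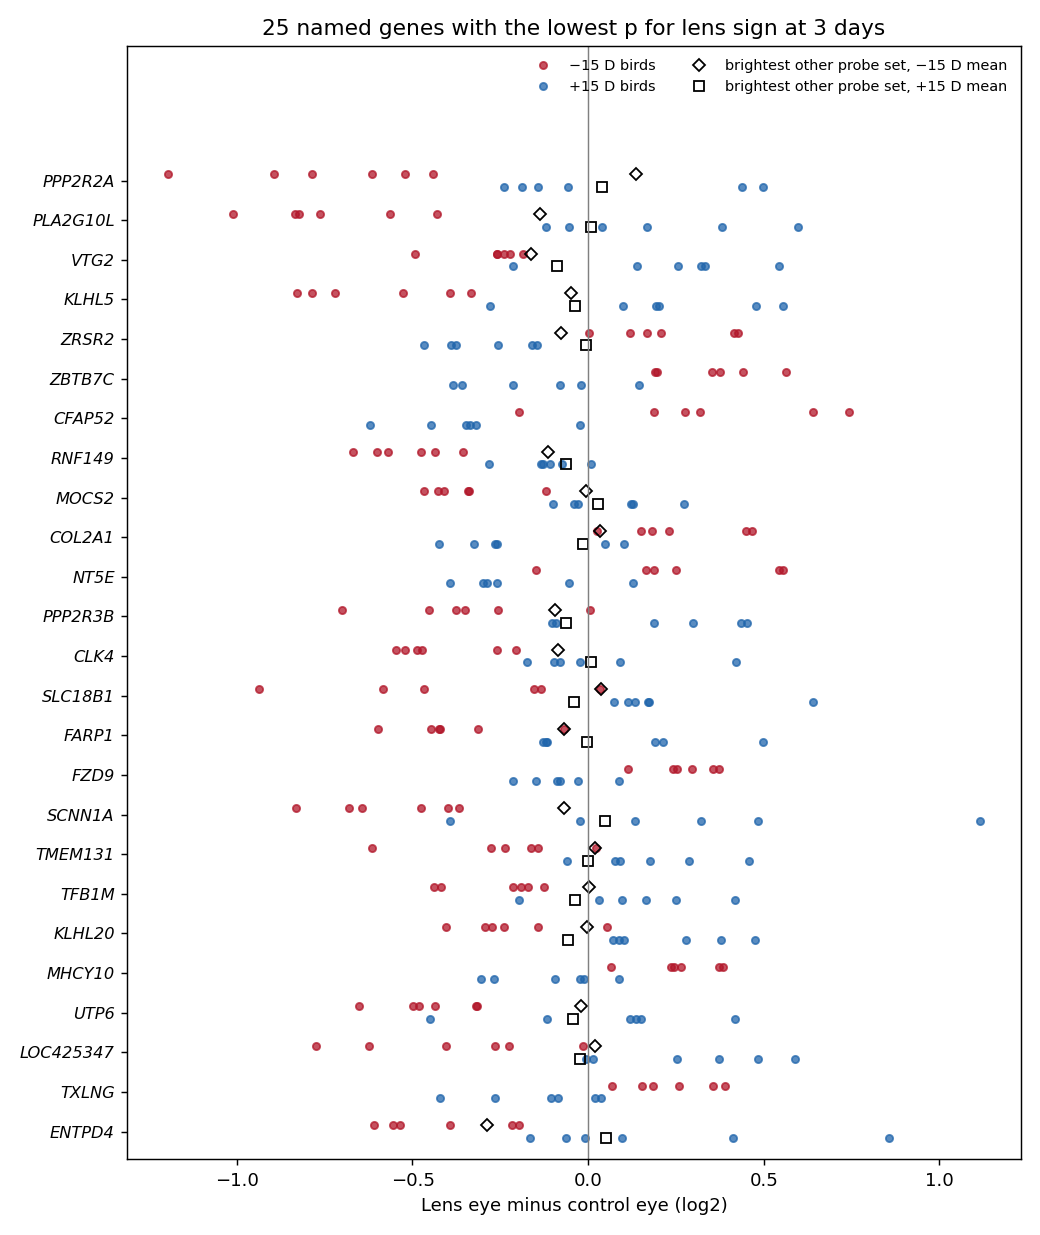
Lens minus control difference (log2) in each bird for the 25 named genes with the lowest p for lens sign, -15 D birds in red above +15 D birds in blue. Open diamonds (-15 D) and squares (+15 D) are the mean differences of the gene's brightest probe set where that is another probe set, as for 19 genes. They cluster near 0 for most.

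A stricter pattern, in which all 6 birds of one lens lay above 0 and all 6 of the other below it, was found for 26 probe sets (0.0677% of those tested). In 17 of these (0.0443%) the lens eye was higher behind -15 D and lower behind +15 D, and in 9 (0.0234%) the reverse. The splicing gene ZRSR2 was in both this set and the 25 lowest p, with 0.22 ± 0.17 in -15 D and -0.30 ± 0.13 in +15 D birds at signals near background, and a sign difference of 0.52 (0.30 to 0.75). Its brightest probe set, at 9.82, gave -0.07. MRPL17, a mitochondrial ribosomal protein, had 0.14 ± 0.03 in -15 D and -0.12 ± 0.08 in +15 D birds. NDUFAB1, the mitochondrial acyl carrier protein, had 0.06 ± 0.05 in -15 D and -0.10 ± 0.11 in +15 D birds. TOR1A, an ATPase of the endoplasmic reticulum, had 0.12 ± 0.07 in -15 D and -0.09 ± 0.05 in +15 D birds. DPYSL4, of neuronal outgrowth, had 0.08 ± 0.10 in -15 D and -0.25 ± 0.13 in +15 D birds. A dimmer DPYSL4 probe set gave a sign difference of -0.27, in the other direction. SLC35E4, a putative transporter, had 0.18 ± 0.18 in -15 D and -0.15 ± 0.09 in +15 D birds. GALNT5, which adds sugars to proteins, had 0.13 ± 0.08 in -15 D and -0.17 ± 0.13 in +15 D birds, MARCKSL1, an actin regulator, 0.06 ± 0.03 in -15 D and -0.07 ± 0.03 in +15 D birds, and PSME3, a proteasome activator, 0.20 ± 0.22 in -15 D and -0.21 ± 0.18 in +15 D birds from a probe set below background. The brightest PSME3 probe set gave a sign difference of 0.10.

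The reverse pattern was shown by genes that were lower behind -15 D in 6 of 6 birds and higher behind +15 D in 6 of 6. TENM4, a teneurin of neuronal contacts, had -0.41 ± 0.11 in -15 D and 0.17 ± 0.28 in +15 D birds, where bird 5 alone reached 0.75. IFNGR2, an interferon gamma receptor chain, had -0.15 ± 0.10 in -15 D and 0.17 ± 0.11 in +15 D birds. GTF2IRD1, a transcription factor, had -0.20 ± 0.06 in -15 D and 0.10 ± 0.09 in +15 D birds. RIN2, which activates Rab5, had -0.17 ± 0.15 in -15 D and 0.11 ± 0.10 in +15 D birds. SNRNP200, a helicase of the spliceosome, had -0.16 ± 0.14 in -15 D and 0.30 ± 0.33 in +15 D birds, and NAPRT, of NAD synthesis, -0.19 ± 0.17 in -15 D and 0.35 ± 0.41 in +15 D birds. The brightest probe sets of 4 of these genes gave smaller differences, with -0.06 for TENM4, 0.08 for IFNGR2, 0.09 for NAPRT and 0.02 for SNRNP200, the last 3 of opposite sign, although 2 dimmer SNRNP200 probe sets gave -0.49 and -0.63. LOC770392 had a sign difference of -0.36, with -0.04 from its brightest probe set, and HIP1R, which links clathrin to actin, one of -0.13. All of these had adjusted p-values of 0.40 or more.

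PRLL, a gene related to prolactin, stood out among peptides and hormones because its larger response was in the +15 D birds. It had 5.48 to 5.81 log2 in -15 D lens eyes against 5.27 to 5.65 in their control eyes, and 5.65 to 7.08 in +15 D lens eyes against 5.00 to 5.76 in theirs. The response averaged 0.19 ± 0.19 in -15 D and 0.97 ± 0.53 in +15 D birds. Of the latter, 5 birds lay between 0.98 and 1.33 and bird 1 at -0.06. The +15 D response did not pass the test (adjusted p = 0.110, limma). The sign difference was -0.79 (-1.30 to -0.27, unadjusted p 0.0044, adjusted 0.409). The tachykinin receptor TACR1 had -0.28 (p 0.0371, limma). These were the 2 of 30 peptide genes with an unadjusted p under 0.05 (6.67%, against 8.32%). Of 13 dopamine genes 2 had an unadjusted p under 0.05 (15.4%, against 8.32%), in opposite directions. The receptor DRD5 averaged 0.19 ± 0.12 in -15 D birds (above 0 in 6 of 6). In +15 D birds it averaged -0.15 ± 0.20 (above 0 in 1 of 6), a difference of 0.34 (p 0.00335, limma). SLC18A2, the vesicular monoamine transporter, had -0.36 (p 0.00894, limma). Dimmer probe sets gave -0.02 for DRD5 and, below background, 0.13 for SLC18A2.

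Of 31 GABA, glycine and glutamate receptor genes, 6 had an unadjusted p under 0.05 (19.4%, against 8.32% of all named genes), 5 lower and 1 higher in -15 D birds, and the median sign difference was -0.06 against 0.03 over all named genes. GABRR3, a GABA receptor subunit, averaged -0.70 ± 0.23 (lower in 6 of 6) in -15 D and -0.02 ± 0.55 in +15 D birds. The difference was -0.68 (-1.16 to -0.21). Of the +15 D birds, bird 5 reached 1.04 and the others lay between -0.47 and 0.04. GLRA2, a glycine receptor subunit, averaged -0.54 ± 0.21 in -15 D birds and lay between -0.46 and 0.84 in +15 D birds. GRIK2, a kainate receptor subunit, averaged -0.35 ± 0.12 in -15 D and 0.07 ± 0.25 in +15 D birds. With the GAPDH ratio as a covariate none of the 31 had a p under 0.05 (against 2.72% of all named genes) and the median was -0.04. With the actin ratio 1 did (3.23%, against 3.57%) and the median was -0.07.

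Of 66 genes for subunits of oxidative phosphorylation 58 had a sign difference above 0, with a median of 0.08. Of all 13009 named genes 7938 did, with a median of 0.03. Among the 66, 12 had an unadjusted p under 0.05 (18.2%, against 8.32% of all named genes), all higher in -15 D birds. Of all named genes 706 were higher and 376 lower at that threshold. The list mean was above 0 in 6 of 6 -15 D birds (0.01 to 0.16) and in 2 of 6 +15 D birds (-0.07 to 0.06). NDUFS5 of complex I averaged 0.32 ± 0.06 in -15 D and 0.02 ± 0.20 in +15 D birds, without overlap. NDUFA11 and UQCR11, of complexes I and III, had sign differences of 0.16 and 0.20. The count was 9 with the actin ratio (13.6%, against 3.57% of all named genes, with a median of 0.08) and 6 with the GAPDH ratio (9.09%, against 2.72%, with a median of 0.06). It was 7 without -15 D birds 5 and 6 (10.6%, against 6.26%). Without the wide birds, whose lens minus control differences spread most over probe sets, it was 7 as well (10.6%, against 10%). At 3 days +15 D bird 1 was the wide bird. Of 60 cytosolic ribosomal protein genes 1 had an unadjusted p under 0.05 (1.67%).

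Vessel and muscle genes had the largest median of the 34 lists, and 2 birds carried it. Of 21 vessel and muscle genes 10 had an unadjusted p under 0.05 (47.6%, against 8.32% of all named genes), all higher in -15 D birds. Apart from KDR these 10 were genes of striated muscle. The endothelial genes FLT1, PECAM1, CDH5, VWF and TEK had unadjusted p-values (limma) of 0.324 to 0.902. The smooth muscle genes ACTA2, TAGLN, MYH11 and MYLK had 0.514 to 0.965. The median sign difference of the list was 0.73. The list mean differed by 1.79 and 2.54 between the eyes of -15 D birds 5 and 6 and lay between -0.16 and 0.61 in the other -15 D birds, and between -1.29 and 1.49 in +15 D birds. TNNC2, a troponin of fast skeletal muscle, had responses from -0.10 to 6.84 in -15 D birds (median 0.17) and from -0.38 to 0.03 in +15 D birds. TNNT2, a troponin of cardiac muscle with a mean signal below background, had 0.09 to 3.73 in -15 D birds (median 0.19) and -0.46 to 0.26 in +15 D birds. Without those 2 birds 1 of the 21 had a p under 0.05 (4.76%, against 6.26% of all named genes) and the median was 0.12. With the actin ratio as a covariate 2 did (9.52%, against 3.57%) and the median was 0.78. With the GAPDH ratio 0 did (against 2.72%) and the median was 0.46. Without the wide birds 9 did (42.9%, against 10%). KDR, the endothelial receptor of VEGF on the same list, averaged 0.11 ± 0.10 in -15 D and -0.10 ± 0.15 in +15 D birds, a sign difference of 0.21. Its probe sets disagreed, as 2 dimmer ones gave -0.61 (p 0.00331) and -0.48 (p 0.0161).

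**Figure D5:**
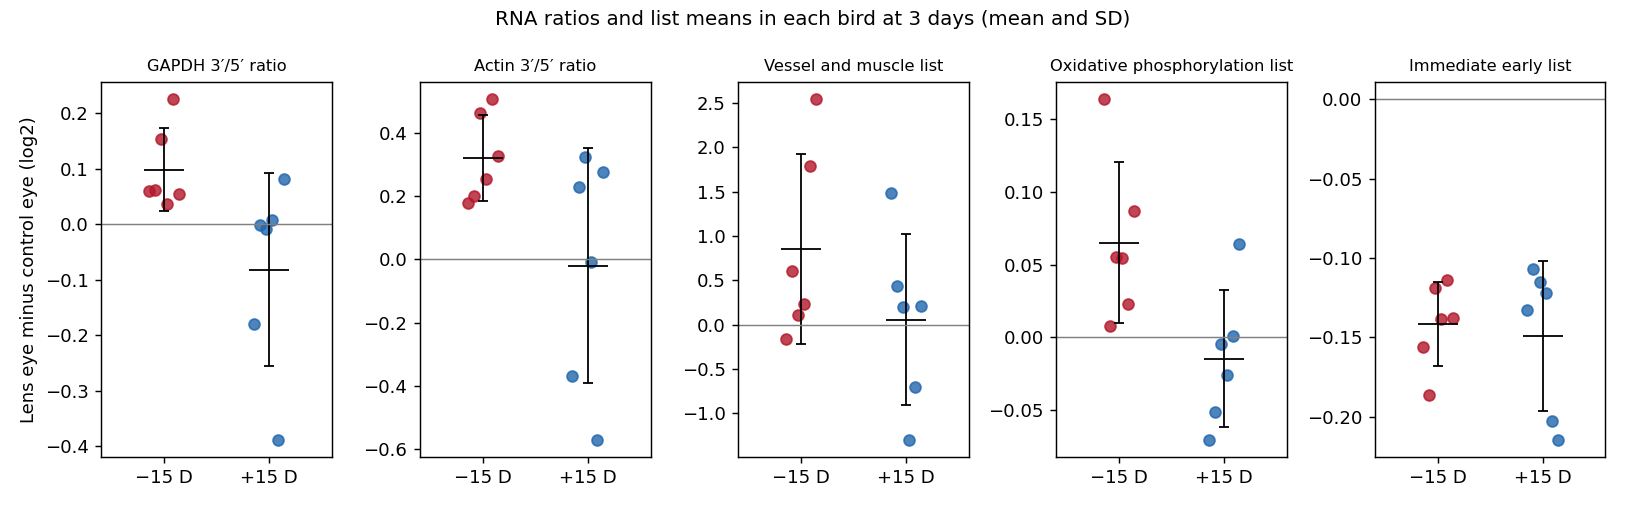
Lens minus control difference (log2) in each bird of the GAPDH and actin 3′/5′ signal ratios and of the means of 3 gene lists, -15 D birds in red and +15 D birds in blue, with mean and SD in black. Both ratios are above 0 in all -15 D birds, 2 -15 D birds stand apart in the muscle list, and the immediate early list is below 0 in all 12 birds.

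Matrix, growth factor, sterol and chaperone genes gave single members with low p-values, at shares to be read against 8.32% of all named genes. Of 22 extracellular matrix genes 5 had an unadjusted p under 0.05 (22.7%), 4 of them higher in -15 D birds. The proteoglycan NCAN averaged 0.24 ± 0.11 in -15 D and -0.13 ± 0.23 in +15 D birds, the collagen COL9A1 0.39 ± 0.63 in -15 D and -0.41 ± 0.58 in +15 D birds, and the proteoglycan SPOCK1 -0.35 ± 0.19 in -15 D and 0.07 ± 0.35 in +15 D birds. Dimmer SPOCK1 probe sets above background gave sign differences of 0.04 and -0.35, against -0.42. Of 40 growth factor genes 4 had an unadjusted p under 0.05 (10%). IGFBP4, which binds insulin-like growth factors, averaged 0.22 ± 0.15 in -15 D and -0.10 ± 0.07 in +15 D birds, without overlap. FGF1 averaged 0.01 ± 0.12 in -15 D and -0.22 ± 0.15 in +15 D birds, and the insulin receptor substrate IRS4 -0.24 ± 0.09 in -15 D and -0.02 ± 0.23 in +15 D birds. The sterol list held 20 genes of sterol and fatty acid synthesis, transport and control, of which 3 had an unadjusted p under 0.05 (15%). They were the cholesterol enzymes SQLE, LSS and DHCR7, with sign differences of 0.24, 0.19 and 0.22. Each response was above 0 in 6 of 6 -15 D birds. Dimmer probe sets gave sign differences of 0.08 for SQLE, -0.31 and -0.01 for LSS and 0.36 for DHCR7. HSP90AB1 and BAG3, a chaperone and a co-chaperone, had 0.26 and 0.22 (-0.05 from a dimmer BAG3 probe set). They were the 2 of 20 heat shock genes with a p under 0.05 (10%). Of 27 glycolysis and hypoxia genes 3 did (11.1%). They were PFKFB3 (-0.25) and PFKM (0.25), both of the phosphofructokinase step, and the oxygen sensor EGLN3 (-0.47). Dimmer PFKFB3 probe sets above background gave -0.07 and -0.01. For EGLN3 the response of +15 D bird 5 was 0.82, against -0.47 to -0.02 in the other +15 D birds. With either RNA ratio as a covariate 0 of the sterol and 0 of the heat shock genes had a p under 0.05, against 3.57% (actin) and 2.72% (GAPDH) of all named genes. The sterol median was then 0.07 (actin) and 0.09 (GAPDH), against 0.09 without a covariate, and the heat shock median was 0.00 with either, against 0.06.

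For genes that mark the main cell types of the sample and for other pathways, the shares are to be read against 8.32% of all named genes. The count at an unadjusted p under 0.05 was 1 of 15 rod genes, 0 of 14 cone genes, 1 of 22 inner retinal genes, 0 of 14 Müller glia genes and 0 of 20 RPE genes. It was 0 of 22 choroid and sclera genes, 0 of 19 blood and immune genes and 0 of 17 lens and anterior segment genes, lists whose means varied between eyes of single birds. It was 1 of 25 clock and melatonin genes (NPAS2, a partner of the clock protein BMAL, with -0.51 and p 0.000808), 1 of 21 retinoic acid genes, 1 of 26 synaptic vesicle genes, 1 of 17 ion and water transport genes, 0 of 9 thyroid hormone genes, 2 of 30 ubiquitin ligase genes and 0 of 19 interferon response genes. The choroid and sclera list had a median sign difference of 0.30, with 17 of 22 above 0. The lens and anterior segment list had 0.26, with 14 of 17 above 0, against 0.03 over all named genes. The choroid and sclera median was 0.74 without the wide birds and 0.02 without -15 D birds 5 and 6.

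Set beside 6 hours of wear, no probe set passed the test for a change in the sign difference. At 6 hours 0 of 38382 probe sets were called (0%), with 1362 at an unadjusted p under 0.05 (3.55%). The difference of the sign differences, 3 days minus 6 hours, had 0 called (0%) and 1494 at an unadjusted p under 0.05 (3.89%). Across probe sets the sign differences at 3 days and at 6 hours, which come from different birds, had a Pearson correlation of 0.20 and a Spearman correlation of 0.22, as a description. Between the lens eyes of -15 D and +15 D birds at 3 days, without reference to their control eyes, 0 were called (0%) and 3235 had an unadjusted p under 0.05 (8.43%). Between the control eyes of the 2 sets of birds, 0 were called (0%) and 1456 had one (3.79%).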

How the data were processed

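The authors deposited 1 log2 signal for each probe set and Affymetrix Chicken array, computed with RMA, which corrects background, brings all arrays to 1 distribution and summarises the probes of a set. RMA and Partek are named per the submitters' processing notes, without versions or settings. Labelled cDNA was made from 100 ng of total RNA, per the labels' protocols. RMA hides a shift shared by most genes and compresses differences between dim probe sets. Arrays carry no counts, so their number limits the precision. Array medians at 3 days lay between 6.39 and 6.51.

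Of 38535 rows, 153 Affymetrix control probe sets were left out. The platform annotation, with 0 symbols updated through RefSeq, gave 1 gene for 27168 probe sets, several for 177 (unused) and none for 11037. Background was the 95th percentile of all values of the 541 viral probe sets (4.61). For lists each of 13009 genes was taken by its brightest probe set.

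Models were fitted with limma (lmFit and eBayes, version 3.58.1, in R 4.3.3) to 48 arrays with the bird as a block (20 residual degrees of freedom), two-sided p adjusted by Benjamini-Hochberg over all probe sets, with a threshold of 0.05. Both eyes of a bird share a bird number in the sample titles, and each replicate is a separate bird. As a check, the departures of both eyes from the mean of their group correlated above 0.1 in 10 of 12 birds (-0.21 to 0.66). The fit was tested on simulated data. Alternatives changed the block, arrays, filter, weights, centring, moderation, covariates and birds used. Named genes were the 25 with the lowest p for sign, the 20 largest differences among genes with opposite signs in all birds of the 2 lenses, the eye growth list, the 3 lowest p of every other list, and every gene called in either response. The comparison, its 34 lists and the naming rule were chosen with earlier results of these data known. Bird numbers are the replicate numbers of the labels within a set.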

Additional observations from a re-analysis of the deposited data

Results flagged for a closer look

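In 18 of 242 sets of 6 birds examined, 1 bird stood apart from the other 5 by Dixon's criterion, which flags about 1 set in 20 by chance. All values here are lens minus control differences in log2. The lens and anterior segment list was at -3.91 in -15 D bird 4 (others -0.26 to 0.21) and at -3.94 in +15 D bird 3 (others -1.34 to -0.02).

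In -15 D birds, bird 1 stood apart for IGF1 (0.58, others -0.33 to -0.18) and EGLN3 (-0.15, others -0.65 to -0.59), bird 2 for MOCS2 (-0.12, others -0.47 to -0.34), and bird 3 for NOS1 (-0.26, others -0.01 to 0.10). Bird 4 did for VTG2 (-0.49, others -0.26 to -0.18) and ENTPD7 (0.50, others 0.28 to 0.33), and bird 6 for OPN4 (-0.49, others -0.23 to -0.18).

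In +15 D birds, bird 5 stood apart for SLC18B1 (0.64, others 0.07 to 0.17), TENM4 (0.75, others 0.02 to 0.13), OPN4 (0.43, others -0.47 to -0.24), GABRR3 (1.04, others -0.47 to 0.04) and EGLN3 (0.82, others -0.47 to -0.02). Bird 1 did for IFNGR2 (0.39, others 0.07 to 0.16), PENK (-0.25, others 0.01 to 0.13) and PRLL (-0.062, others 0.98 to 1.33), and bird 4 for ID4 (0.15, others -0.16 to -0.06).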

How the results depend on the processing

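The sign difference had 0 calls under each of the 25 alternatives except array weights (1) and the fits that left out 1 bird (0 to 1, the 1 without +15 D bird 5). Of 113 probe sets of genes named in the text none reversed or was lost, since none was called, and VTG2 was called under those 2 settings. Without the replicate block (the bird) the -15 D response had 0 calls in place of 27 and the +15 D response still 2. The -15 D response had 2 with the 24 arrays of 3 days alone, 381 with probe sets above the median, 144 above background, 2284 with array weights, 3 with arrays centred on their medians, 75 with trend and robust fitting, 233 without the wide birds, 1 in the unmoderated model of 12 differences, 2 with the actin ratio and 85 with 1 probe set per gene. Chosen after the data were seen, the GAPDH ratio gave 3 and leaving out -15 D birds 5 and 6 gave 1. Leaving out 1 bird gave 3 to 525, the highest without +15 D bird 5, 12 without +15 D bird 6 and at most 6 otherwise. The +15 D response had 9 with array weights, 0 in the unmoderated model, 1 with 1 probe set per gene and 2 to 3 without 1 bird. The contrast of 3 days with 6 hours had 3 with array weights and 0 to 1 without 1 bird. The cause of these changes was not tested. Probe sets at unadjusted p under 0.05 for sign were 972 without the block, 2161 without +15 D bird 5 and 2653 without -15 D birds 5 and 6. The mean of 8852 probe sets lay below background, where the signal limits what can be measured. With 3-day birds alone (the 24 arrays, the 12 differences) the contrast with 6 hours cannot be formed.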
